A study of Mus musculus with 10 samples.

Results

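TRIM genes encode the tripartite motif proteins, a large family in which a RING finger, B-box zinc fingers and a coiled coil are followed by a variable tail, often a PRY-SPRY domain. The members were taken from a table of read counts for 24385 genes, as the symbols that begin with Trim and a digit and that held at least 60 counts over 6 RNA libraries. After 1 symbol had been set aside, 66 symbols fitted the name and 43 held enough counts. The 11 interferon-inducible members were described against the 32 others.

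Most TRIM proteins with a RING finger act as ubiquitin ligases: they take ubiquitin from a conjugating enzyme and place it on a substrate, which can mark the substrate for degradation or switch on its signalling. Type I interferon, the cytokine that cells release on sensing viral nucleic acid, turns on a subset of TRIM genes through IRF9 and related IRF proteins. Products of that subset bind viral components, or act on the sensors and kinases that lead to interferon itself, and dendritic cells rely on the same pathway when they detect infection.

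The cells were bone marrow-derived dendritic cells, antigen-presenting cells grown from the bone marrow of female wild-type C57BL/6 mice aged 8 to 10 weeks with 20 ng/mL of the growth factor GM-CSF. Non-adherent cells taken on day 6 as immature cells were then kept for 24 h with 400 µg/mL of an apple mango leaf extract (AMLE) or with its vehicle, 0.04% DMSO. Each group had 3 RNA libraries and 2 libraries of open chromatin (ATAC, which marks DNA that a transposase can enter), the latter from 100000 cells each. The study asked whether the extract matures and activates these cells, and whether its replicates are separate mice or cultures is not stated in the labels. A p-value here therefore measures only the spread between these libraries, which may be technical.

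RNA libraries held 26010455 to 34208286 counts. Of 7 dendritic cell markers all were detected, with a summed level of 5353 to 8001 CPM (counts scaled to a common library total) in DMSO and 6291 to 7075 CPM in AMLE, and 4 were higher and 1 lower. Markers of other cell classes also differed between the groups, where 48.6% of all genes tested were called. The 4 neutrophil and precursor markers in the table summed to 4041 to 6501 CPM in DMSO and 2857 to 4043 in AMLE, with 3 of 4 lower, and the 4 mast cell and basophil markers to 81.7 to 135 and 155 to 327, with 3 of 4 higher. The 5 macrophage markers summed to 464 to 548 CPM in DMSO and 388 to 494 in AMLE, with 1 higher and 2 lower. Lymphocyte markers summed to 13.6 to 18.9 CPM in DMSO and 13.3 to 19.3 in AMLE, with 1 lower. Stromal markers summed to 0.948 to 0.999 and 0.621 to 0.726, with 1 lower. Plasmacytoid markers, at 75.9 to 80.9 and 78.3 to 88.2, held no called gene. Erythroid markers stayed below 0.59 CPM in sum, with Hba-a1 and Hbb-bs at 0 in all 6 libraries. The part of these other cells in the TRIM results was not tested, and in bulk RNA fewer cells of a type cannot be told apart from less RNA per cell.

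Of the 43 members, 42 passed the filter on low counts, and none of them passed it through 1 group only. After AMLE 13 TRIM genes were higher and 6 were lower at an adjusted p below 0.05 (edgeR quasi-likelihood test with Benjamini-Hochberg adjustment over 13075 genes). That is 30.95% of tested members higher against 23.0% of all genes tested, and 14.29% lower against 25.6%; 48.6% of all genes were called in either direction. Their median log2 fold change, AMLE minus DMSO, was 0.16, beside -0.005 for all genes. The changes were mostly small: 7 called members moved at least 1.5-fold, where 20.1% of all genes did, and only Trim37 and Trim59 moved at least 2-fold, where 9.92% did. The 3 libraries of each group did not overlap for 25 members, 19 with AMLE above and 6 with AMLE below, against 28.4% and 31.4% of all genes (59.7% in either direction). Without DMSO replicate 2 the count of higher members was 7 instead of 13. The calls over all genes in that fit are not given here, so whether the drop is particular to TRIM genes was not tested. With the replicate number as a block, 16 members were higher and 8 lower. Over all 13075 genes the block also gave more calls, 3434 higher and 3813 lower, against 3004 and 3346 without it.

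**Figure D1:**
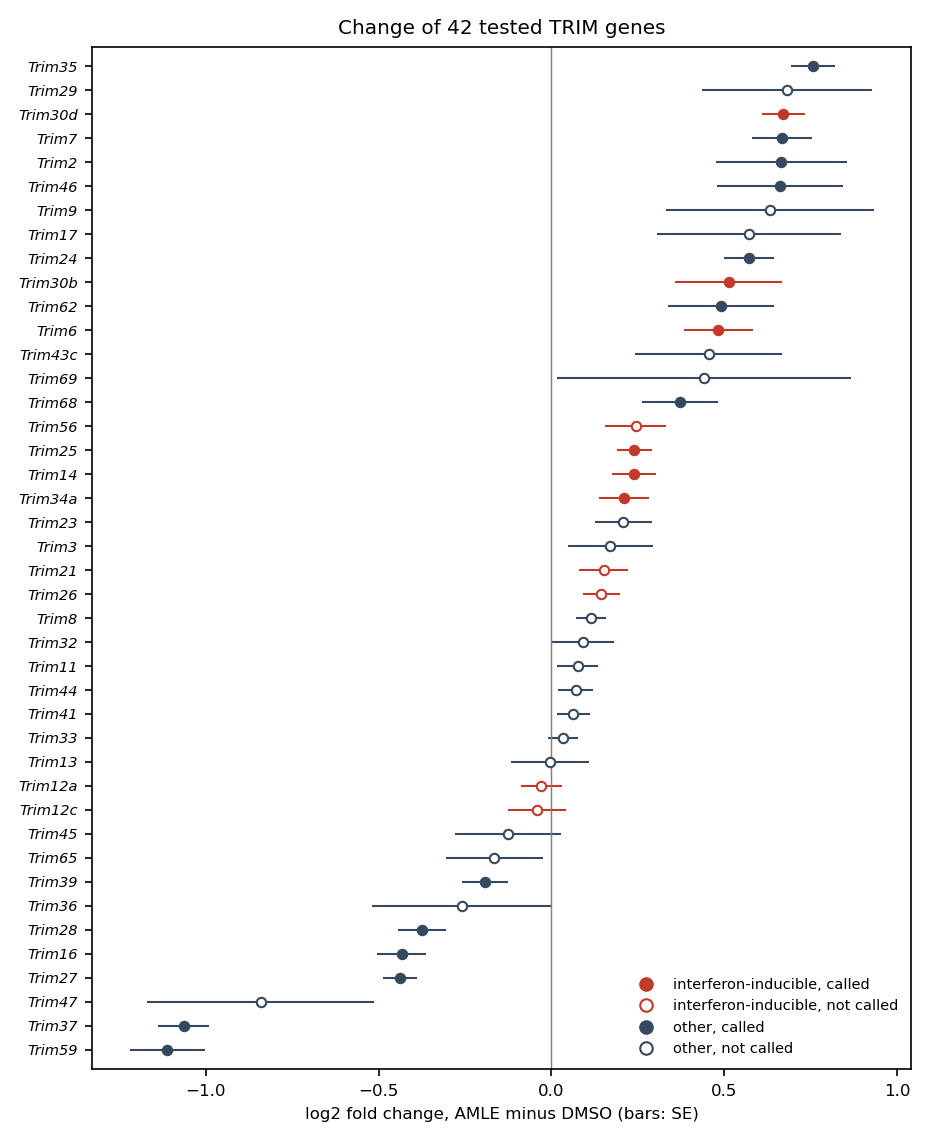
Log2 fold change, AMLE minus DMSO, of each of the 42 tested TRIM genes, with its standard error as a bar. Filled points are called at an adjusted p below 0.05 and red points are interferon-inducible members, all of which lie between -0.04 and 0.67, while Trim37 and Trim59 lie beyond -1.

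Interferon-inducible TRIM genes were higher or not called after AMLE. Of the 11 tested, 6 were higher (Trim30d, Trim30b, Trim6, Trim25, Trim14 and Trim34a), which is 54.55% of them against 23.0% of all genes and 22.58% of the other members. None was lower in the edgeR test, none was lower at an unadjusted p below 0.05, and DESeq2 and limma-voom also called 0 lower, while 25.6% of all genes and 19.35% of the other members were lower. Their median log2 fold change was 0.24, against 0.09 over the 31 other members tested. The groups did not overlap for 8 of the 11, each with AMLE above, as did 28.4% of all genes. Without AMLE replicate 1 the count of higher members was 3 instead of 6, and the share of all genes called in that fit is not given here.

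Trim30d, of a branch of the family that has expanded in mice, stood at 26.9, 25.6 and 26.4 CPM in DMSO replicates 1 to 3 and at 44.8, 39.6 and 41.3 in the AMLE replicates. The AMLE libraries all lay well above the DMSO libraries, and the means of 26.3 ± 0.65 and 41.9 ± 2.65 CPM (SD, n = 3) gave the largest rise among inducible members, 1.59-fold (log2 fold change 0.67 ± 0.06, SE, adjusted p = 0.000238). Its neighbour Trim30b measured 7.82, 6.07 and 5.31 CPM in DMSO and 9.90, 8.37 and 9.21 in AMLE. Those ranges came close without overlapping, for a 1.43-fold rise (0.51 ± 0.15, adjusted p = 0.0289). Its call was lost on leaving out DMSO replicate 2 (adjusted p = 0.0943), replicate 3 of the same group (0.0737) or AMLE replicate 1 (0.0877).

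Trim6, whose product builds unanchored ubiquitin chains that activate the kinase IKKε, was at 5.88, 6.25 and 6.06 CPM in DMSO and 7.88, 8.34 and 9.21 in AMLE. All AMLE libraries were above all DMSO libraries, and the gene rose 1.40-fold (0.48 ± 0.10, adjusted p = 0.00614). Trim25, the ligase best known for its part in activating the RNA sensor RIG-I, measured 158.8, 153.1 and 151.3 CPM in DMSO and 179.3, 176.2 and 191.5 in AMLE. This is a 1.18-fold rise with no overlap (0.24 ± 0.05, adjusted p = 0.00667), and the call held without each library in turn.

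Trim14 encodes an adaptor without a RING finger that works at mitochondria in MAVS signalling. It was at 76.6, 80.0 and 69.9 CPM in DMSO and 93.2, 88.1 and 85.9 in AMLE, again without overlap and again 1.18-fold higher (0.24 ± 0.06, adjusted p = 0.0172). Without AMLE replicate 1 its adjusted p was 0.0576. Trim34a, a close relative of Trim6, measured 21.0, 20.4 and 23.1 CPM in DMSO and 24.97, 23.5 and 26.1 in AMLE. The highest DMSO library lay just under the lowest AMLE library, and the 1.16-fold rise (0.21 ± 0.07) stood at the threshold, with an adjusted p of 0.0477. The call was lost on leaving out replicate 1 or 2 of DMSO (0.140 and 0.159) or replicate 1 or 3 of AMLE (0.0930 and 0.0814), and it was not made by DESeq2 (0.0682), by limma-voom (0.0505) or with no filter on low counts (0.0673).

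The other 5 inducible members were not called. Trim56, an antiviral ligase linked to cGAS and STING signalling, measured 28.0, 25.1 and 23.8 CPM in DMSO and 32.4, 31.4 and 27.4 in AMLE. AMLE replicate 3 fell inside the DMSO range, and the difference of 0.24 ± 0.09 had an adjusted p of 0.0558. With the replicate block it was called higher (adjusted p = 0.00807), as it was without AMLE replicate 3 (0.0111), without DMSO replicate 1 (0.0412) and with upper-quartile scaling (0.0394). Trim26, a ligase reported to act on IRF3, was at 56.4, 59.5 and 60.05 CPM in DMSO and 67.8, 64.8 and 61.9 in AMLE. The groups did not overlap, with a difference of 0.14 ± 0.05 (adjusted p = 0.0601), called without AMLE replicate 3 (0.0217) and with upper-quartile scaling (0.0325). Trim21, the cytosolic receptor for antibody-coated particles, measured 23.2, 20.5 and 22.3 CPM in DMSO and 24.2, 25.9 and 23.2 in AMLE. The highest DMSO and the lowest AMLE library were nearly equal (0.15 ± 0.07, adjusted p = 0.120).

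Trim12a and Trim12c, the mouse relatives of the primate retroviral restriction factor TRIM5, had the smallest differences among the inducible members. Trim12a measured 29.8, 27.5 and 27.9 CPM in DMSO and 29.1, 27.1 and 27.3 in AMLE, with the groups intermixed (-0.03 ± 0.06, adjusted p = 0.708). For Trim12c the DMSO libraries, at 41.8, 45.5 and 52.2 CPM, spread around the AMLE libraries at 45.1, 44.0 and 46.3 (-0.04 ± 0.08, adjusted p = 0.695). The sign of both flips: for Trim12a with upper-quartile scaling or without DMSO replicate 1, and for Trim12c without DMSO replicate 3.

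**Figure D2:**
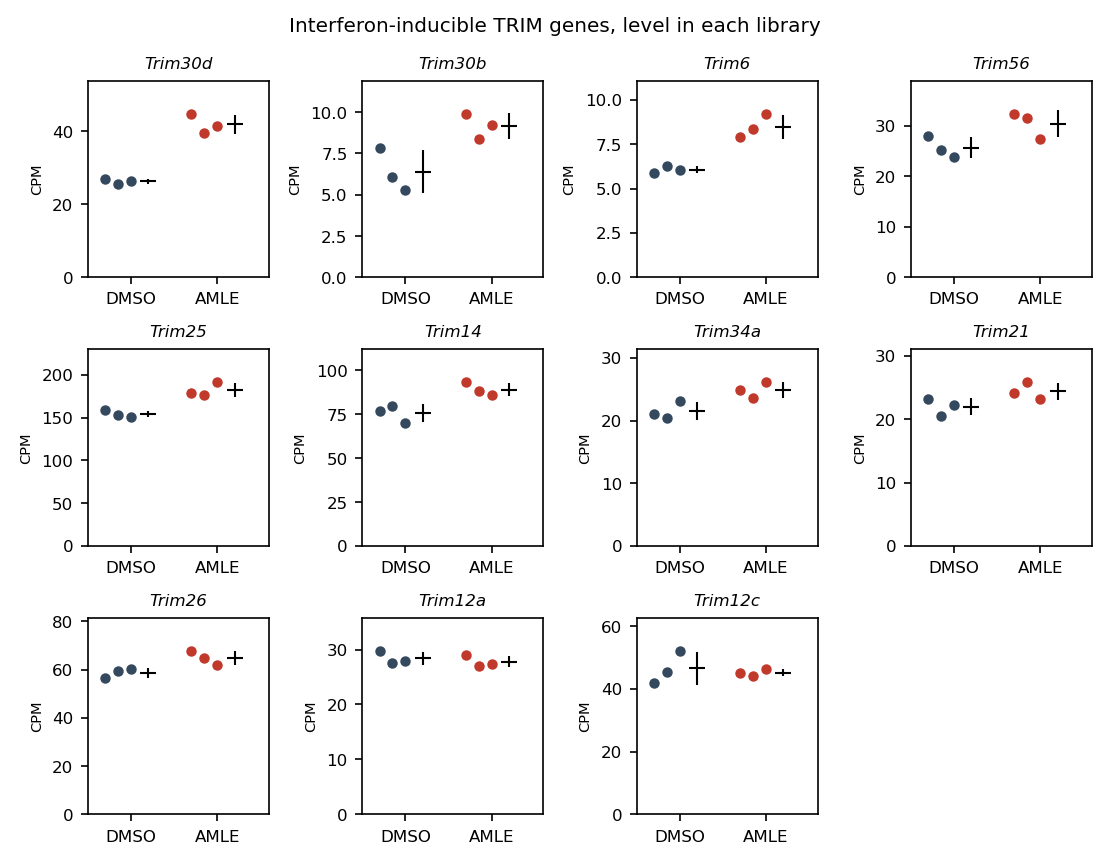
Level in CPM (vertical axes, each from 0) of the 11 interferon-inducible TRIM genes in each DMSO (dark) and AMLE (red) library, replicates 1 to 3 from left to right, with the mean and SD of 3 libraries as a black cross. Trim30d shows the widest gap, 25.6 to 26.9 against 39.6 to 44.8 CPM, while the groups are intermixed for Trim12a and Trim12c.

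Trim6, Trim34a, Trim12a, Trim12c, Trim30b and Trim30d sit in 1 cluster at chr7:104218795-104507853 (GRCm38.p6, the assembly of mm10), over 289.1 kb. Of these 6 neighbours 4 were higher (66.67%, against 23.0% of all genes) and none lower (against 25.6%), with a median log2 fold change of 0.35 beside -0.005 for all genes, so called and uncalled genes lie within the same stretch. Trim12a and Trim12c, the pair compared by sequence, were close copies at their starts: their 300-base windows were identical at 247 of 260 aligned bases (95.0%). The sources used here do not say how the reads of such copies were shared out. The split between Trim12a and Trim12c is therefore uncertain, as it may be between Trim30b and Trim30d.

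IRF proteins bind a DNA element, the interferon-stimulated response element, whose core is a pair of GAAA blocks. The motif searched was GAAA, any 2 bases, then GAAA, on both strands and with overlaps allowed, from 250 bases before to 50 after each annotated RefSeq start. They were found at 6 of the 10 inducible members with a RefSeq window (60%) and at 1 of 21 other members (4.76%), against 3.88% of 10423 tested genes and 3.44% of all 32851 windows of this length. The stretches are shown because they were found at a larger share of inducible members than of the rest of the family, and the choice of genes by name and count did not use sequence. Each is given 5′ to 3′ on the gene's strand from GRCm38.p6, with the match in capitals; TTTC blocks are the same letters read from the opposite strand.
Trim30d: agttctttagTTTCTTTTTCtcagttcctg
Trim34a: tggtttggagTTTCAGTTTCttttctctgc
Trim12a: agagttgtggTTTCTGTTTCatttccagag
Trim12c: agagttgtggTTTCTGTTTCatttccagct
Trim21: ctgagagGAAACTGAAAGTGAAAtttggac
Trim26: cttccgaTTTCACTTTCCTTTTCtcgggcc
Trim2: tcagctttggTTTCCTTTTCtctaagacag

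The match of Trim30d begins 41 bases before the start (window chr7:104507800-104508099, minus strand), that of Trim12c 29 bases before (chr7:104353300-104353599, minus strand) and that of Trim12a 10 bases after (chr7:104315446-104315745, minus strand). Trim34a has it 10 bases after the start (chr7:104244207-104244506, plus strand). Trim21 holds 2 overlapping matches, 13 and 19 bases after its start (chr7:102565433-102565732, minus strand), and Trim26 also holds 2, at 160 and 154 bases before (chr17:36836896-36837195, plus strand). Trim2, the single match among the other members, has it 28 bases after 1 of its 5 annotated starts (chr3:84212789-84213088, minus strand). Each inducible member with a window had 1 start. Not every member with the letters was called. Of the 6 inducible members with them, Trim30d and Trim34a were higher, and of the 4 without them (Trim25, Trim30b, Trim6 and Trim56) 3 were higher. Over all genes tested 23.0% were higher. These sets are too small to compare, and the calls of Trim34a and Trim30b were lost on leaving out some single libraries. Trim14, also higher, had no window and is in neither set. Trim12a and Trim12c, with the same match in nearly the same surroundings, were not called.

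The 250 bases before the starts of Trim30d (chr7:104507850-104508099) and Trim12c (chr7:104353350-104353599) are printed side by side because both genes belong to the chr7 cluster and both carry the letters upstream, while Trim30d was called higher and Trim12c was not called.
Trim30d: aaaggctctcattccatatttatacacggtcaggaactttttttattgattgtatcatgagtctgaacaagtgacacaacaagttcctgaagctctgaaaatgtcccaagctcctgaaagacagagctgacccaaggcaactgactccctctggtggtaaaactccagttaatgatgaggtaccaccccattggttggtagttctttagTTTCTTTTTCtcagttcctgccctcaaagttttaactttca
Trim12c: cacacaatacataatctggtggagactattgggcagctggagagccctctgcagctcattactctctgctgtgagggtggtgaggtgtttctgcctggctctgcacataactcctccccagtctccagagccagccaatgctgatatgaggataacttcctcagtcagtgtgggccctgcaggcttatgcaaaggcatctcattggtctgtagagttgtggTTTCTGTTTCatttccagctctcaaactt
A match is a description of the sequence and shows neither that a factor binds there nor what drives the gene.

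Most TRIM genes with an open start had it listed in both groups. Of 31 members with a start in the RefSeq windows used here, 19 (61.3%) had a peak within 1000 bases in both DMSO libraries, against 72.5% of all genes tested. In both AMLE libraries it was also 19, against 69.6%. In all 4 libraries it was 18 members (58.1%), against 67.7%. No member had a peak in both libraries of 1 group and in neither of the other; 1.33% of all genes had one in DMSO only and 0.230% in AMLE only. With 2 libraries per group no test was made, and the AMLE lists were shorter, 15805 and 15597 peaks against 18460 and 19225 in DMSO. No peak was listed in any library for Trim2, Trim6, Trim30b, Trim58 and Trim69. Trim6 and Trim30b lie in the chr7 cluster, and the sources used here do not say how ATAC reads from close copies were treated. A missing peak is therefore not read as a closed start.

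Among the inducible members, Trim12a, Trim12c, Trim25, Trim26 and Trim56 had a peak in all 4 libraries. At Trim12c the authors' fold enrichment at the summit was 14.9 and 19.2 in the DMSO libraries and 11.5 and 13.8 in the AMLE libraries, so the start of this uncalled gene was listed as open in all 4. At Trim25 it was 12.8 and 13.5 in DMSO and 11.0 and 8.90 in AMLE. Trim30d, the inducible gene with the largest rise, had a peak only in AMLE replicate 1, with a fold enrichment of 3.89 and a −log10 q of 2.25, close to the smallest −log10 q of the lists (1.301 to 1.308). Trim34a lacked a peak in DMSO replicate 1, with fold enrichments of 8.82 in DMSO replicate 2 and 5.84 and 5.93 in the AMLE libraries, and Trim21 lacked one in AMLE replicate 2. The match lay inside a listed peak in 4 libraries at Trim12a, Trim12c and Trim26, in 3 at Trim21 and Trim34a, in 1 at Trim30d and in 0 at Trim2.

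**Figure D3:**
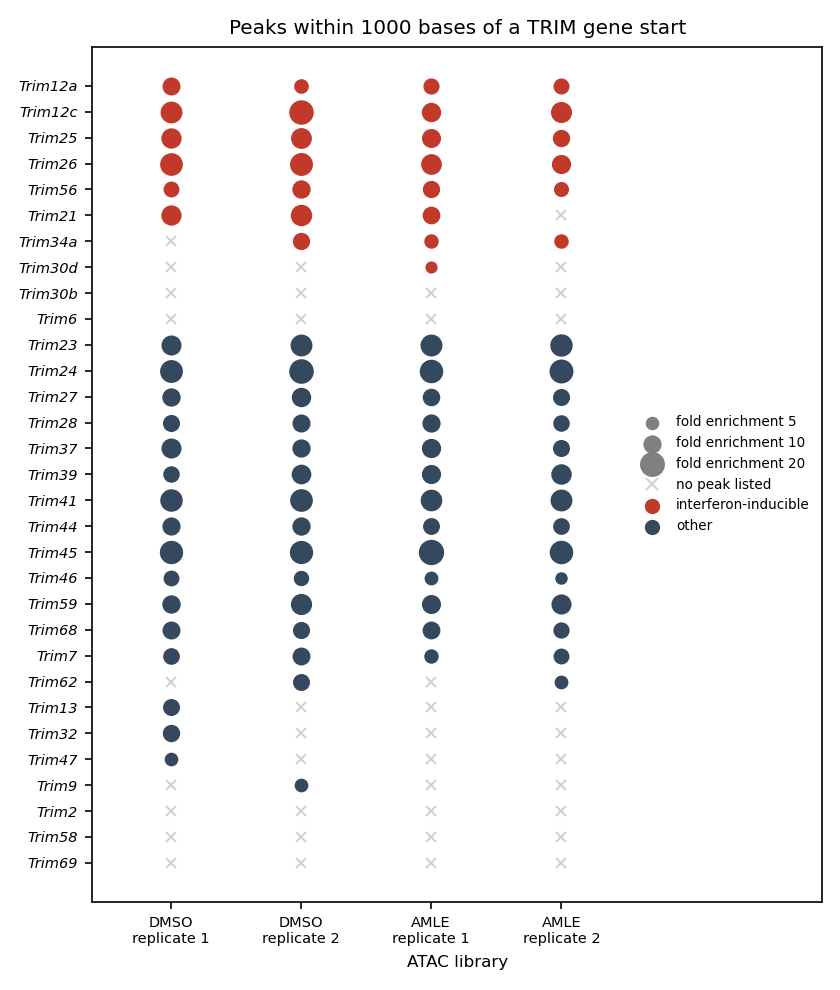
ATAC peaks within 1000 bases of the start of 31 TRIM genes (rows) in each of 4 libraries (columns), the area of a circle scaling with the authors' fold enrichment and a cross standing for no listed peak. Of the 31 genes 18 are marked in all 4 libraries, and Trim30d is marked in AMLE replicate 1 only.

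The other 31 tested members moved in both directions, 7 higher (22.58%) and 6 lower (19.35%), close to the shares over all genes of 23.0% and 25.6%. Higher were Trim35, Trim7, Trim2, Trim46, Trim24, Trim62 and Trim68, and lower were Trim59, Trim37, Trim27, Trim16, Trim28 and Trim39.

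The TIF1 members, chromatin corepressors with a PHD finger and a bromodomain, split 3 ways. Trim24, a cofactor of nuclear receptors, was at 23.9, 23.3 and 26.5 CPM in DMSO and 36.4, 38.6 and 34.5 in AMLE. It rose 1.49-fold without overlap (0.57 ± 0.07, adjusted p = 0.000815). Trim28, the corepressor recruited by KRAB zinc finger proteins to silence endogenous retroviruses, was at 182.0, 176.9 and 173.5 CPM in DMSO and 144.2, 143.2 and 123.1 in AMLE. All AMLE libraries were lower, by 1.297-fold (-0.37 ± 0.07, adjusted p = 0.00376). Trim33, a partner of SMAD signalling, did not pass the test at 62.6 ± 0.905 CPM in DMSO and 64.1 ± 1.46 in AMLE (SD, n = 3; 0.03 ± 0.04).

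Of the 3 members with a membrane or ARF link, 1 was lower (against 25.6% of all genes) and none higher (against 23.0%), too few to compare. Trim59, anchored in the membrane of the endoplasmic reticulum, measured 16.4, 16.1 and 19.3 CPM in DMSO and 7.11, 8.17 and 8.67 in AMLE. This was the largest fall among the 42 tested members, 2.16-fold (-1.11 ± 0.11, adjusted p = 0.000277), from 17.3 ± 1.76 to 7.98 ± 0.80 CPM. Trim13 and Trim23 were not called, at -0.004 ± 0.11 and 0.21 ± 0.08. The sign of Trim13 flips with DESeq2 or upper-quartile scaling, and Trim23 was called higher with the latter (adjusted p = 0.0406).

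The role group of regulators of antiviral or NF-κB signalling, which leaves out the inducible list, had 5 tested members. Of these, 2 were lower (40%, against 25.6% of all genes), 3 were not called and none was higher (against 23.0%). So few genes cannot be set against such shares. Nor does the group hold every member with such a link: Trim35 and Trim62, given below, were placed with the remaining members and were called higher. Trim27, first known from its fusion with the RET kinase, was at 65.3, 61.5 and 65.6 CPM in DMSO and 47.8, 47.3 and 46.8 in AMLE. The tight AMLE values lay wholly below, 1.36-fold lower (-0.44 ± 0.05, adjusted p = 0.000434). Trim39 measured 32.8, 30.5 and 28.4 CPM in DMSO and 27.3, 26.5 and 26.4 in AMLE. The groups did not overlap, but the 1.14-fold fall (-0.19 ± 0.07) had an adjusted p of 0.0471 and was called in only 1 of the 6 fits that left out a library, the fit without DMSO replicate 3. The adjusted p ran from 0.0977 to 0.145 without each of the other 5, and was 0.0953 in DESeq2, 0.0514 with no filter on low counts and 0.0907 with upper-quartile scaling. Trim8, Trim29 and Trim65 were not called (0.11 ± 0.04, 0.68 ± 0.25 and -0.17 ± 0.14). Trim29, with an adjusted p of 0.0541, was called higher by limma-voom (0.0487), with upper-quartile scaling (0.0467) and without AMLE replicate 3 (0.0490), and Trim8 with upper-quartile scaling (0.0291).

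Trim2, an NHL-repeat ligase of neurons, was at 1.27, 1.33 and 1.52 CPM in DMSO and 1.79, 2.36 and 2.37 in AMLE. These are low levels, and the 1.59-fold rise without overlap (0.66 ± 0.19, adjusted p = 0.0234) lost its call on leaving out replicate 1 or 2 of DMSO (0.0815 and 0.0739) or AMLE replicate 2 (0.0724). Its NHL relatives Trim3 and Trim32 were not called (0.17 ± 0.12 and 0.09 ± 0.09), and Trim3 was called higher with the replicate block (adjusted p = 0.0278).

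Trim46, a COS-box protein that bundles microtubules at the start of the axon, measured 3.53, 2.74 and 2.38 CPM in DMSO and 5.13, 4.52 and 4.05 in AMLE. It rose 1.58-fold without overlap (0.66 ± 0.18, adjusted p = 0.0205), a call lost on leaving out replicate 2 or 3 of DMSO (0.0704 and 0.0569) or AMLE replicate 1 (0.0714). Its span overlaps Krtcap2, which went the opposite way, from 44.5 to 29.5 CPM (-0.59, adjusted p = 0.000985). Whether the counting kept the strands apart is not given in the sources used here. Trim46 is not alone in this: the spans of 21 of the 43 members overlap another RefSeq gene, and those of 8 overlap a protein-coding one. The other COS-box members tested, Trim9 and Trim36, were not called (0.63 ± 0.30 and -0.26 ± 0.26). With the replicate block Trim9 was called higher (0.0273; also without DMSO replicate 1, 0.0206) and Trim36 lower (0.00764); Trim36 was at 20.1, 21.4 and 32.7 CPM in DMSO and 15.7, 18.6 and 27.8 in AMLE, replicate 3 being high in both groups.

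Of the 15 remaining members, 14 were tested, and 4 were higher (28.57%, against 23.0% of all genes) and 2 lower (14.29%, against 25.6%). Trim35, a ligase reported to act on IRF7, was at 112.3, 118.4 and 119.3 CPM in DMSO and 190.2, 213.8 and 187.2 in AMLE. Every AMLE library was far above every DMSO library, and this was the largest called rise among the tested members, 1.69-fold (0.76 ± 0.06, adjusted p = 0.000156). Trim7, a partner of glycogenin, the protein that primes glycogen synthesis, was at 18.2, 19.5 and 22.5 CPM in DMSO and 31.7, 30.7 and 33.2 in AMLE. It rose 1.59-fold, also with a clear gap (0.67 ± 0.09, adjusted p = 0.000878).

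Trim62, a ligase of the CARD9 pathway that follows fungal sensing, measured 5.403, 4.35 and 5.06 CPM in DMSO and 5.86, 6.86 and 8.14 in AMLE. The groups did not overlap, but the AMLE libraries were widely spread and the 1.41-fold rise (0.49 ± 0.15, adjusted p = 0.0320) held in only 1 of the 6 fits that left out a library, that without AMLE replicate 1. Without DMSO replicates 1, 2 and 3 the adjusted p was 0.0526, 0.110 and 0.0666, and without AMLE replicates 2 and 3 it was 0.0634 and 0.0598. Trim68 was higher by 0.37 ± 0.11 (adjusted p = 0.0272), a call lost on leaving out replicate 1 or 2 of DMSO (0.0942 and 0.0711) or AMLE replicate 2 (0.0827).

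Trim37, a ligase that limits centriole number and modifies histone H2A, was at 33.6, 33.9 and 35.7 CPM in DMSO and 15.8, 15.5 and 18.1 in AMLE. The AMLE libraries stood at about the same level and far below all DMSO libraries, 2.09-fold lower (-1.06 ± 0.07, adjusted p = 9.07e-05). Trim16, a RING-less member that takes part in the clearance of damaged lysosomes, measured 24.2, 22.2 and 21.2 CPM in DMSO and 17.2, 16.6 and 16.2 in AMLE. It was lower in all AMLE libraries, 1.35-fold (-0.43 ± 0.07, adjusted p = 0.00227).

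The 18 other members that were not called ranged from -0.84 (Trim47) to 0.68 (Trim29) on the log2 scale, with adjusted p from 0.0541 to 0.981. Trim47 had the widest difference among them, at 4.54, 5.09 and 7.30 CPM in DMSO and 2.48, 2.22 and 4.81 in AMLE. Replicate 3 was the highest of each group, and AMLE replicate 3 fell inside the DMSO range (-0.84 ± 0.33, adjusted p = 0.0719). It was called lower with the replicate block (0.00148), without AMLE replicate 3 (0.00343), by DESeq2 (0.0290) and by limma-voom (0.0426). Trim58 was not tested, with 9, 4 and 5 counts in DMSO and 22, 41 and 3 in AMLE. Trim69, with a total of 63 counts, lay just inside the count rule, and Trim34b, Trim66 and Trim72, with 35 each, lay just outside it.

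**Figure D4:**
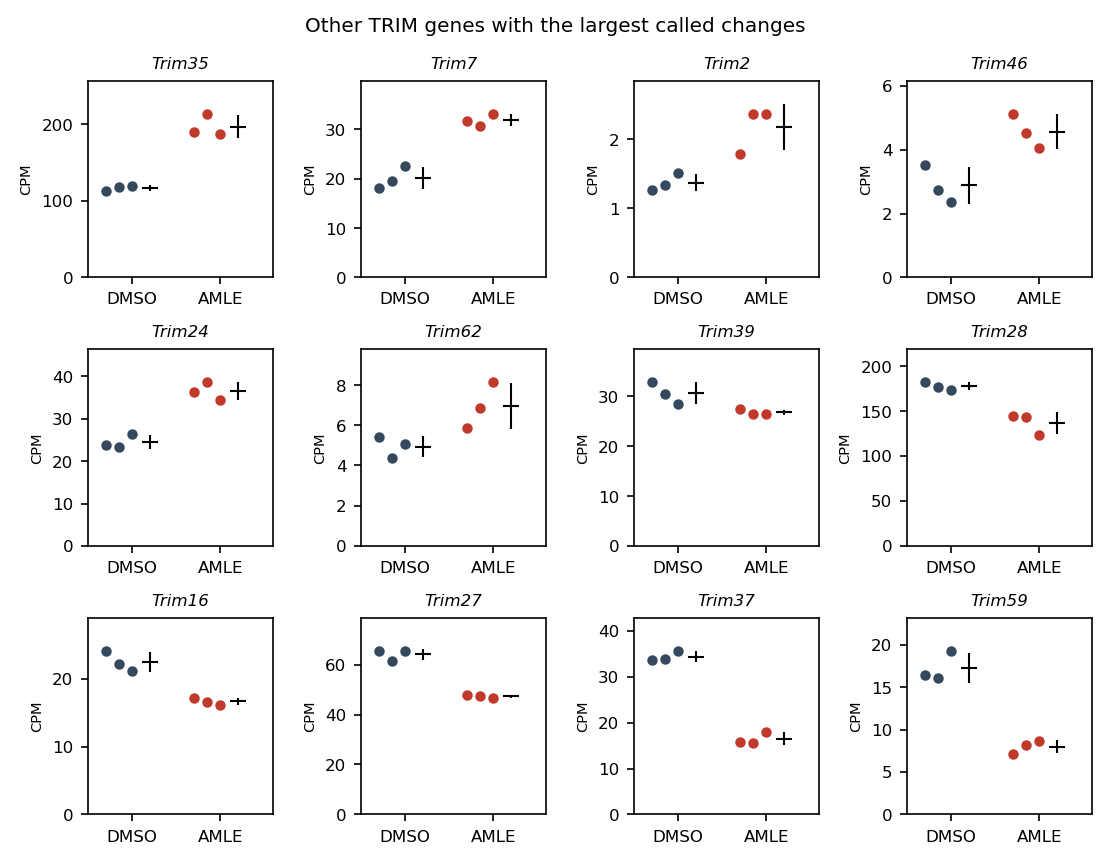
Level in CPM (vertical axes, each from 0) of the 6 largest called rises and the 6 called falls among the other TRIM genes, in each DMSO (dark) and AMLE (red) library, replicates 1 to 3 from left to right, with the mean and SD of 3 libraries as a black cross. No gene shows overlap between groups, and Trim37 and Trim59 stand at less than 20 CPM in AMLE, below all of their DMSO libraries.

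Peaks were listed in both groups at genes of either direction. Trim24, higher in AMLE, had fold enrichments of 16.5 and 19.4 in DMSO and 17.6 and 18.3 in AMLE. Trim59, lower in AMLE, had 10.2 and 14.1 in DMSO and 11.1 and 12.5 in AMLE, and Trim37 had 12.4 and 10.0 against 11.3 and 8.62. These folds come from each library's own list and were not compared between groups. A peak was also listed in all 4 libraries for Trim27, Trim28, Trim39, Trim46, Trim68 and Trim7, and in 1 library of each group for Trim62.

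A list of 31 genes gave the sensors and signalling proteins around these ligases, with modifiers such as Isg15 and Usp18, and 30 were tested. After AMLE 17 were higher (56.67%, against 23.0% of all genes) and 3 lower (10%, against 25.6%), with a median log2 fold change of 0.26. The 10 not called were Tbk1, Ikbke, Traf3, Map3k7, Irf3, Irf5, Ifnar1, Ifnar2, Ifngr1 and Rnf135. With the replicate block Tbk1 and Ikbke were called higher and Ifngr1 lower. The Jak1 call, higher, was lost with the block and on leaving out any single library. Irf7, the IRF that amplifies interferon production, rose 2.43-fold from 19.4 ± 3.03 to 47.3 ± 7.80 CPM (1.28 ± 0.15, adjusted p = 0.000784). Usp18, which removes ISG15 and damps the interferon receptor, rose 2.34-fold (1.23 ± 0.12), and Isg15, the ubiquitin-like modifier, rose 2.17-fold (1.12 ± 0.12). The RNA sensor gene Ddx58, encoding RIG-I, on which Trim25 acts, rose 1.22-fold (0.29 ± 0.10, adjusted p = 0.0393), a call lost on leaving out replicate 2 or 3 of DMSO or AMLE replicate 1, with an adjusted p of up to 0.126. On the same scale the inducible TRIM genes lay between -0.04 and 0.67.

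The 3 lower genes were the DNA sensor cGAS (Mb21d1, -0.60 ± 0.08, 1.52-fold), its partner STING (Tmem173, -0.30 ± 0.09, 1.23-fold) and the mitochondrial adaptor Mavs (-0.25 ± 0.07, 1.19-fold). The Mb21d1 call held in all 6 fits that left out a library, while those of Mavs (adjusted p up to 0.0594) and Tmem173 (up to 0.104) were each lost in 4 of them. Without DMSO replicate 3 or without AMLE replicate 1 only 1 of the list was lower. Ifnb1, which encodes interferon beta, had 1 count in AMLE replicate 2 and 0 in the other 5 libraries.

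**Figure D5:**
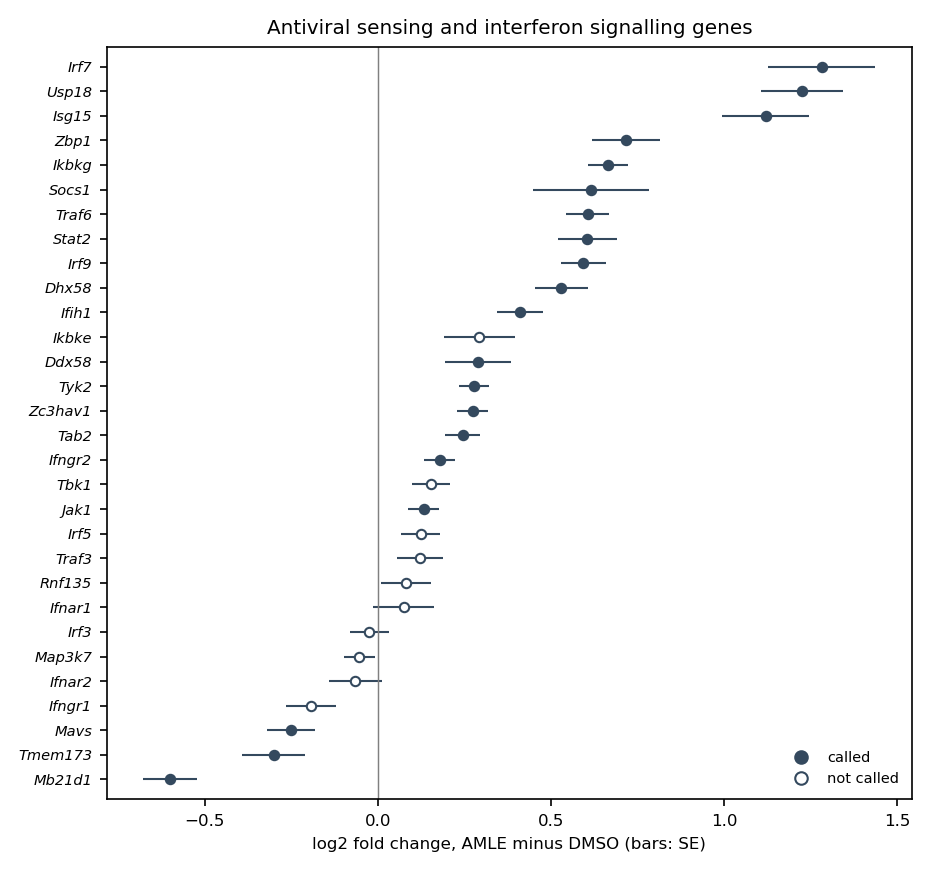
Log2 fold change, AMLE minus DMSO, of 30 antiviral sensing and interferon signalling genes, with the standard error as a bar and filled points for genes called at an adjusted p below 0.05. Irf7, Usp18 and Isg15 lie beyond 1, and Mb21d1, Tmem173 and Mavs are the called genes below 0.

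A list of enzymes of ubiquitin and ISG15 handling around the TRIM ligases, not all of which supply them with ubiquitin, showed both directions. Of 17 listed and tested, 4 were higher and 4 lower (23.53% each, against 23.0% and 25.6% of all genes), with a median of -0.02. Ube2l6 and Uba7, the conjugating and activating enzymes for ISG15, rose 2.59-fold (1.37 ± 0.13, adjusted p = 0.000349) and 1.36-fold (0.44 ± 0.05, adjusted p = 0.000335), and Rnf31, of the linear ubiquitin ligase, rose 1.35-fold (0.43 ± 0.05, adjusted p = 0.000482). Ube2w was the other gene called higher, and lost its call without DMSO replicate 1 or 2 (adjusted p up to 0.0550). Ube2e1 (-0.31 ± 0.07), Ube2k (-0.27 ± 0.04) and Ube2e3 (-0.21 ± 0.07) had the largest falls among the called genes, and Ube2n, which makes K63-linked chains, fell by 0.20 on the log2 scale. Ube2v2, at -0.29 ± 0.10, was not called (adjusted p = 0.0505) and was called lower with the replicate block (0.0241). The Ube2e3 call (adjusted p = 0.0431) held only without DMSO replicate 1 and reached 0.119 in the other fits that left out a library. Among TRIM proteins whose symbols do not begin with Trim, 3 were tested: Mefv, encoding pyrin, was higher (0.45 ± 0.08), Mid1 was lower (-1.34 ± 0.26) and Pml was not called (0.11 ± 0.06).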

How the data were processed

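RNA was measured in 3 DMSO and 3 AMLE libraries and open chromatin in 2 and 2, grouped by sample title. The RNA file is a deposited table of raw read counts by gene symbol, from stranded mRNA libraries per the labels' protocols. For ATAC they deposited peak lists per library that give each summit a fold enrichment, which is a ratio to the local background, and a −log10 q. Both are the authors' values and were used only to describe or filter peaks within a list. Build mm10 and the tools STAR 2.7.11b, Bowtie2 2.4.4, MACS3 3.0.0a7, Trim Galore 0.6.7 and SAMtools 1.7, among others, are named without a role in the submitters' processing notes. Strand setting, counting tool, annotation and peak-call settings were not given in the sources used here.

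Counts were tested with edgeR 4.0.16 (R 4.3.3): filterByExpr with a minimum count of 10, TMM factors, robust quasi-likelihood F test, two-sided, Benjamini-Hochberg adjustment over 13075 genes, called below 0.05. Standard errors were approximated by dividing the size of each log2 fold change by the root of its F statistic. CPM are counts scaled by TMM-adjusted library totals. The fit was also run on simulated counts in which few genes changed, each by at least 1.5-fold, with the same spread for every gene. That run does not cover the many small changes of these data. DESeq2 1.42.0, limma-voom (limma 3.58.1), upper-quartile factors, no filter, narrower (10 genes) and wider (17 genes) inducible lists, a replicate block and leaving out each library were alternatives for RNA. Windows of 500 and 2000 bases, a −log10 q of at least 5 and a peak lying mostly inside the window were alternatives for peaks. Leaving out both libraries numbered 3 was chosen after seeing the data. Same-numbered libraries deviated together, with correlations across genes of 0.292, 0.28 and 0.431 for numbers 1, 2 and 3, each above 0.1. Of the unlike-numbered pairs, DMSO replicate 1 with AMLE replicate 2 (0.11) and DMSO replicate 2 with AMLE replicate 1 (0.105) also passed 0.1. Pairs of a number 3 with another number lay from -0.31 to -0.266. Deviations were taken from the mean of each group of 3 libraries, which ties the pairs together. These negative values are therefore not separate evidence of a pairing. A pairing by number was thus read from the data only, not from the labels, and the main fit did not use it.

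The members and lists were chosen with earlier results of these data known. The inducible list (14 symbols, of which 11 were tested) and the role groups came from general knowledge, not from these files; Trim5 and Trim30c are not analysed here, and 1 further gene was left out of the sensing and signalling list and is not reported here. Every called member is named. Values per library were given for the tested inducible members and for the 6 largest rises and 6 largest falls among other called members with a mean of at least 1 CPM, and the 3 largest rises and falls were named in the other lists. Trim36, Trim47, Trim58 and Ifnb1 were given by library beyond that rule after their values were seen. Ddx58, Krtcap2, Ube2w, Ube2n and Ube2v2 were likewise named beyond it, without values by library. So were Jak1 and the 10 sensing and signalling genes that were not called. Levels were not compared between genes, because transcript lengths were not used here. All 43 members were matched to a RefSeq gene (GRCm38.p6), but the set of RefSeq promoter windows used for starts held only 31 of them. Trim3, Trim8, Trim11, Trim14, Trim16, Trim17, Trim29, Trim33, Trim35, Trim36, Trim43c and Trim65 had no window there and are not described for peaks or sequence.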

Additional observations from a re-analysis of the deposited data

How the results depend on the processing

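The count of higher TRIM members, 13, ran from 7 to 16 when each library was left out in turn, lowest without DMSO replicate 2. It was 12 in DESeq2 and with no low-count filter, 13 in limma-voom, 18 with upper-quartile factors and 18 without both libraries numbered 3. Lower members, 6, ran from 5 to 8 over the same settings. The count of higher inducible members, 6, ran from 3 to 7 when a library was left out, lowest without AMLE replicate 1, and from 5 to 8 otherwise; the count of lower ones was 0 in every setting. The list of sensing and signalling genes held 14 to 19 higher ones throughout, against 17, and its lower ones, 3, ran from 1 to 4 when a library was left out. With the replicate block 16 members were higher and 8 lower, beside 3434 and 3813 of all 13075 genes tested. Of the inducible members 7 were higher, and Trim3, Trim9, Trim36, Trim47 and Trim56 gained a call. The block changed no other member's call. For the other settings the calls over all genes are not given here, so those counts of members stand without a share of all genes. Signs reversed only for 3 uncalled members. Trim12a was 0.0045 with upper-quartile factors and ran from -0.056 to 0.0045 when a library was left out, Trim12c ran from -0.1168 to 0.0456 and was 0.0421 without both libraries numbered 3, and Trim13 ran from -0.1182 to 0.0809 and was 0.0022 in DESeq2 and 0.0291 with upper-quartile factors. The cause of these shifts was not tested. Members with a peak in both libraries of a group numbered 18 or 19 under every alternative. Low counts limit Trim2, Trim9, Trim17, Trim29, Trim43c and Trim69, whose standard errors were 0.19 or more on the log2 scale.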
